A study of Mus musculus with 12 samples.

Results

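The genes described here are 6 genes that mark the bone-resorbing osteoclast and the 3 genes of the axis that controls its formation, 9 of the 37432 genes in the expression table of the mouse cochlea. They were taken by name from a list drawn up with earlier results of these data known. *Acp5*, *Ctsk*, *Calcr*, *Dcstamp*, *Ocstamp* and *Atp6v0d2* make up the osteoclast group, and *Tnfsf11*, *Tnfrsf11a* and *Tnfrsf11b* encode the ligand RANKL, its receptor RANK and the decoy receptor OPG. All 9 names were found once in the table. Of these, 5, namely *Acp5*, *Ctsk*, *Atp6v0d2*, *Tnfrsf11a* and *Tnfrsf11b*, reached 1 FPKM in at least 2 of the 12 libraries and entered the tests. *Calcr*, *Dcstamp*, *Ocstamp* and *Tnfsf11* did not pass this filter and are given by their levels.

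The study sequenced cochlear RNA, cut into an apical, a middle and a basal turn, from wild-type males and from males homozygous for the 35delG allele of *Gjb2*, the gene of the gap junction protein connexin 26, at postnatal day 14. The 6 combinations of turn and genotype had 2 biological repeats apiece, and the number of mice or cochleae behind a library was not given in the sources used here. The homozygous males grew from male *Gjb2* 35delG/35delG embryonic stem cells injected into tetraploid embryos, had a background that was almost C57BL/6J, were born by cesarean section and were nursed by ICR females. The wild-type males of the same age came from a supplier, so genotype and origin of the mice cannot be told apart in any comparison below.

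Osteoclasts are large cells that form when monocytes of the macrophage lineage fuse on bone. RANKL on osteoblasts, osteocytes and stromal cells binds RANK on the precursors, and through TRAF6, NF-kB, FOS and NFATC1 it switches on the genes of resorption. OPG is a secreted receptor without a membrane anchor that captures RANKL and so restrains resorption. The cochlea lies inside the otic capsule, a bone known for very little remodelling after its formation, and OPG is known to be made at high level by cells of the inner ear, the spiral ligament among them. A dissected turn can hold pieces of that bone and of its marrow beside the soft tissue.

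The control regions of some of these genes are shown because the osteoclast genes share transcription factors in the textbook account, and because several of them moved together across the libraries described below. RefSeq promoters of GRCm38.p6 were found for 5 of the 9 genes with 8 starts in all, 3 for *Acp5*, 2 for *Calcr* and 1 each for *Ctsk*, *Tnfsf11* and *Tnfrsf11a*. The 250 bases before each start were searched on both strands for the AP-1 site TGACTCA, the NFAT core GGAAA, the PU.1 site GAGGAAG and the MITF sites TCATGTG and TCACGTG. Capitals below mark the matches, none of which overlapped another. The *Ctsk* stretch lies at chr3:95498960-95499209 on the plus strand, the stretch of the *Acp5* start with the most matches at chr9:22130599-22130848 on the minus strand, and the *Tnfsf11* stretch at chr14:78308044-78308293 on the minus strand. These 3 were picked after the matches were seen and are printed 5′ to 3′ along the gene.
Ctsk: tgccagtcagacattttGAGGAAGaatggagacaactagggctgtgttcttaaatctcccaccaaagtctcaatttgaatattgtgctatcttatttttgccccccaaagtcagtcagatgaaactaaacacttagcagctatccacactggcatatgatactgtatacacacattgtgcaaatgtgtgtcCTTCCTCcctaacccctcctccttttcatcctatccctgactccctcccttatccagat
Acp5: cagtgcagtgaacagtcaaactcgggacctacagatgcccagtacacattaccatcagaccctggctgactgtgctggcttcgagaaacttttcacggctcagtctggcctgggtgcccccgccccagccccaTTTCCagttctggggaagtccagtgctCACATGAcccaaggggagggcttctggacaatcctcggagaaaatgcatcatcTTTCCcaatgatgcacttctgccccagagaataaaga
Tnfsf11: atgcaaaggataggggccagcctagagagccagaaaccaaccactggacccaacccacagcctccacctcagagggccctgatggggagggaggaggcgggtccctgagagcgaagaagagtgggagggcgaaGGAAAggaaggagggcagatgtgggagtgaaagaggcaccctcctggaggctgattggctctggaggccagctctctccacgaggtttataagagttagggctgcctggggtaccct

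The *Ctsk* stretch held the PU.1 letters at −233 and, on the other strand, at −59, counted from the start to the leftmost base of the match. A PU.1 match was found in 10.6% of the 32851 promoter stretches of the same length. The printed *Acp5* stretch held the NFAT core at −117 and −37 and TCATGTG at −90, all on the opposite strand. The NFAT core is common and occurred in 55.6% of all stretches, whereas TCATGTG occurred in 3.25% and TCACGTG in 3.13%. *Tnfsf11* held the NFAT core at −117, the other *Acp5* starts held it at −167 and −41, and a *Calcr* start held it at −65. No searched letters were found for *Tnfrsf11a* or the other *Calcr* start, and the AP-1 letters, present in 4.46% of all stretches, were in none of the 8. These matches describe the letters of short windows and were not tested for binding.

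Values below are FPKM, fragments scaled to transcript length and to the mapped fragments of the library, which the authors calculated and which were divided here by a scaling factor per library between 0.917 and 1.06. FPKM are per length, so levels of different genes can be set side by side. A library listed 13729 to 14703 genes at 1 FPKM or more. The smallest value above 0 was 1e-06 and whole reads could not be recovered from the values. The depth of the libraries is therefore unknown, and a value of 0 is given as listed at 0. *Gjb2* itself, whose FPKM do not show the allele, lay at 248 and 254 in wild-type and at 332 and 376 in homozygous apical libraries, at 140 and 268 against 256 and 451 in the middle turn, and at 434.5 and 256 against 126 and 58.6 in the basal turn. Its log2 fold change was −1.94 in the basal turn, which at an adjusted p = 0.0238 (limma) was not called. A gene counts as called when its adjusted p is under 0.01 and it differs more than 2-fold. Fold changes are differences of log2(scaled FPKM + 1), homozygous minus wild-type, and understate the change of low genes.

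Several libraries stood apart in their tissue markers, and leave-out values are given where they move a result. The homozygous middle repeat 1 and the wild-type basal repeat 2 had the highest summed levels of 14 osteoblast and osteocyte markers, 5614 and 6373 against 1154 to 3074 in the other libraries. The same libraries led the 11 marrow and blood markers, at 8896 and 6247 against 220.4 to 3009, and the 12 macrophage markers, at 689 and 764 against 85.2 to 263. Both homozygous basal libraries were low in the sum of 6 spiral ligament markers, at 2582 and 512 against 6860 to 11930, a sum made up mostly of *Coch* and *Otos*, and in the 10 markers of cochlear epithelium and hair cells, at 132 and 6.02 against 661 to 3392. The 8 neuron and Schwann cell markers summed to 10520 and 15110 in those libraries, to 19280 and 4673 in the wild-type middle turn, to 825 and 5596 in the wild-type basal turn and to 543 to 2648 elsewhere. No gene of the osteoblast, marrow, macrophage, spiral ligament or nerve lists was listed at 0 in any library, whereas 3 of the 10 epithelial genes were at 0 in the homozygous basal repeat 2 and 1 in each of 3 wild-type libraries. In these bulk samples, fewer cells of a type and less RNA per cell cannot be told apart.

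The osteoclast genes were highest in 2 libraries. *Acp5*, *Ctsk*, *Calcr*, *Dcstamp* and *Ocstamp*, 5 of the 6, had their highest level in the homozygous middle repeat 1, and *Atp6v0d2* had its highest in the wild-type basal repeat 2. Of all genes tested, 10.6% peaked in the homozygous middle repeat 1. Of the 6, 5 had these same libraries as their top pair, and *Ocstamp*, with the homozygous apical repeat 1 as its second library, was the exception. The other repeats of the same groups stayed far below, so that for the osteoclast genes the spread within a group exceeded the difference between genotypes in the middle and basal turns.

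**Figure D1:**
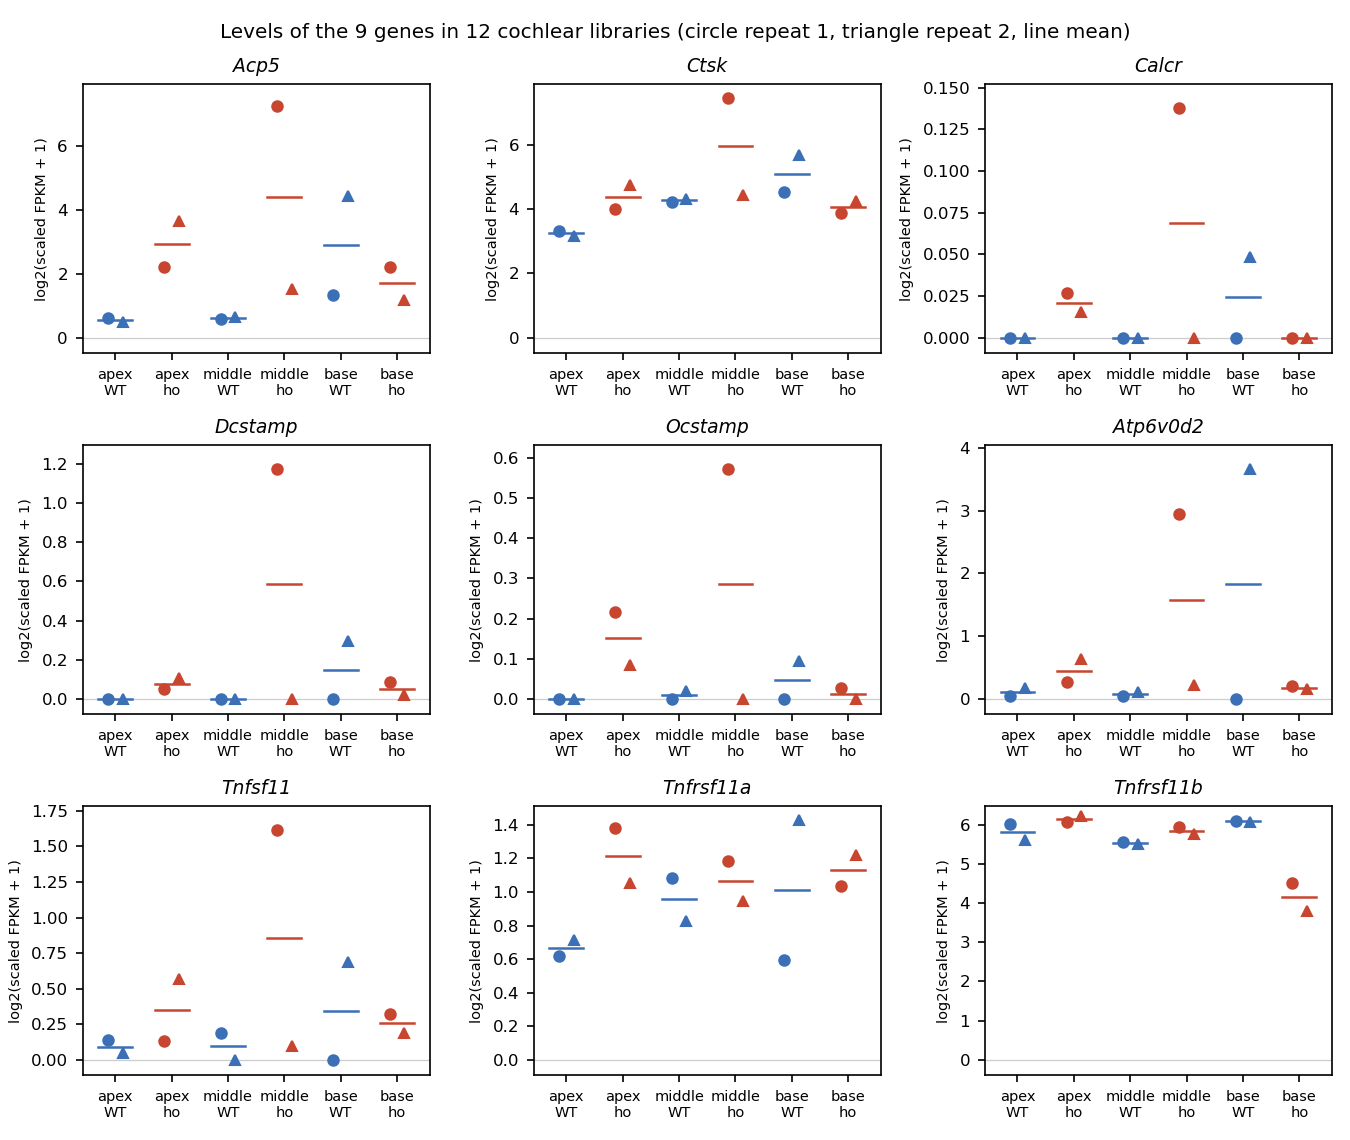
Level of each of the 9 genes in the 12 libraries as log2(scaled FPKM + 1), with wild-type (WT) in blue and 35delG homozygous (ho) in red, circles for repeat 1, triangles for repeat 2 and lines for the group mean. The homozygous middle circle stands above its own repeat in the 6 osteoclast genes and in *Tnfsf11*, while *Tnfrsf11b* is even in 10 libraries and low in both homozygous basal libraries.

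*Acp5* (ENSMUSG00000001348.15, minus strand of chromosome 9, 22126727 to 22135711 in GRCm38) encodes tartrate-resistant acid phosphatase, the enzyme whose stain defines osteoclasts in histology. Its scaled FPKM was 0.530 and 0.399 in wild-type against 3.61 and 11.6 in homozygous apical libraries, 0.514 and 0.572 against 152 and 1.92 in the middle turn, and 1.55 and 20.7 against 3.68 and 1.28 in the basal turn. The homozygous middle repeat 1 alone held 76.6% of the sum over the 12 libraries and lay 87.5-fold above their median. Homozygous libraries were above wild-type without overlap in the apical and middle turns and overlapped with them in the basal turn. The 4 wild-type apical and middle libraries were all below 1 FPKM. Between genotypes its log2 difference was 2.38 at the apex (standard error 1.61, 95% interval −1.28 to 6.04, adjusted p = 0.509, limma), 3.77 in the middle turn (0.11 to 7.43, adjusted p = 0.186) and −1.19 in the basal turn (−4.85 to 2.47, adjusted p = 0.659). None was called. Without the homozygous middle repeat 1 the middle value dropped to 0.91, and without the wild-type basal repeat 2 the basal value turned to 0.36.

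*Ctsk* (ENSMUSG00000028111.4, plus strand of chromosome 3, 95499256 to 95509362) encodes cathepsin K, the protease that cleaves the collagen of bone. It was the highest osteoclast gene, present in every library, with a mean above that of 95.2% of all genes in the table. Scaled FPKM in wild-type and homozygous apical libraries was 8.98 and 8.03 against 15.1 and 25.8, in the middle turn 17.7 and 18.9 against 173 and 20.8, and in the basal turn 21.9 and 50.2 against 13.6 and 18.1. Genotypes did not overlap in any turn, with homozygous libraries higher in the apical and middle turns and lower in the basal turn. By group mean (± SD, n = 2) the order was homozygous middle at 96.8 ± 107, wild-type basal at 36.0 ± 20.0, homozygous apical at 20.5 ± 7.55, wild-type middle at 18.3 ± 0.825, homozygous basal at 15.8 ± 3.20 and wild-type apical at 8.502 ± 0.668. Each neighbour in this order overlapped with the next except homozygous basal and wild-type apical, which were not compared by a test. The log2 fold change between genotypes was 1.13 in the apical turn (−0.69 to 2.95, adjusted p = 0.529), 1.68 in the middle turn (−0.14 to 3.49, adjusted p = 0.228) and −1.04 in the basal turn (−2.85 to 0.78, adjusted p = 0.415). The middle value was 0.18 without the homozygous middle repeat 1, and the basal value was −0.45 without the wild-type basal repeat 2.

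*Atp6v0d2* (ENSMUSG00000028238.6, minus strand of chromosome 4, 19876841 to 19922605) encodes a subunit of the proton pump that acidifies the space under the osteoclast and takes part in cell fusion. It was 0.0264 and 0.123 in wild-type against 0.208 and 0.547 in homozygous apical libraries, 0.0343 and 0.0760 against 6.675 and 0.162 in the middle turn, and 0 and 11.7 against 0.153 and 0.111 in the basal turn. The gene passed the filter through the homozygous middle repeat 1 and the wild-type basal repeat 2, which together held nearly all of its signal, 33.6% and 59.1% of the sum, and without either of them it could not be tested. The log2 fold changes from apex to base were 0.35, 1.5015 and −1.66, with adjusted p-values of 0.914, 0.433 and 0.344 (limma).

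The fusion proteins and the calcitonin receptor were near the floor of the table. *Dcstamp* (ENSMUSG00000022303.9, plus strand of chromosome 15, 39745932 to 39760938), a membrane protein needed for precursors to fuse, was listed at 0 in 6 libraries and reached 1.26 in the homozygous middle repeat 1. Its other values were 0.0338 and 0.0768 in homozygous apical libraries, 0.227 in the wild-type basal repeat 2 and 0.0604 and 0.0122 in homozygous basal libraries. All 4 wild-type apical and middle libraries were thus at 0. *Ocstamp* (ENSMUSG00000027670.4, minus strand of chromosome 2, 165393760 to 165400405), its partner in fusion, was also at 0 in 6 libraries and was 0.162 and 0.0609 in homozygous apical libraries, 0.0144 in the wild-type middle repeat 2, 0.488 in the homozygous middle repeat 1, 0.0672 in the wild-type basal repeat 2 and 0.0182 in the homozygous basal repeat 1. *Calcr* (ENSMUSG00000023964.15, minus strand of chromosome 6, 3685680 to 3764714), the receptor through which calcitonin halts osteoclasts, was at 0 in 8 libraries and was 0.0186 and 0.0109 in homozygous apical libraries, 0.1004 in the homozygous middle repeat 1 and 0.0342 in the wild-type basal repeat 2. These 3 genes were above 0 in both homozygous apical libraries and at 0 in both wild-type ones. How often other genes below the filter split in this way was not counted, so the split cannot be read as a result. At such levels the number of fragments behind a value is unknown. Fitted without the filter on 36005 genes, their log2 fold changes in the middle turn were 0.59 for *Dcstamp* (adjusted p = 0.440, limma), 0.28 for *Ocstamp* (0.452) and 0.07 for *Calcr* (0.459).

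*Tnfsf11* (ENSMUSG00000022015.8, minus strand of chromosome 14, 78277445 to 78308043), the gene of RANKL, was low throughout. Its scaled FPKM in wild-type and homozygous libraries was 0.0997 and 0.0335 against 0.0951 and 0.479 in the apical turn, 0.141 and 0 against 2.07 and 0.0672 in the middle turn, and 0 and 0.611 against 0.252 and 0.138 in the basal turn. The genotypes overlapped in every turn. As for the osteoclast genes, the homozygous middle repeat 1 was highest, with 51.9% of the sum over libraries, and the wild-type basal repeat 2 was next. Without the filter its log2 fold changes from apex to base were 0.26, 0.76 and −0.09, with adjusted p-values of 0.991, 0.474 and 1 (limma).

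*Tnfrsf11a* (ENSMUSG00000026321.7, plus strand of chromosome 1, 105780718 to 105847981), the gene of RANK, was not raised in the homozygous middle repeat 1 as most osteoclast genes were, and like *Atp6v0d2* it was highest in the wild-type basal repeat 2. Its highest library was 3.32-fold above its lowest, the smallest such ratio among the 5 genes that were tested. It was 0.538 and 0.639 against 1.60 and 1.08 in the apical turn, 1.12 and 0.775 against 1.27 and 0.931 in the middle turn, and 0.509 and 1.69 against 1.05 and 1.33 in the basal turn, wild-type before homozygous. That library was 1.59-fold above the median, and the homozygous middle repeat 1 was at 1.27. The homozygous libraries were higher without overlap in the apical turn and overlapped with wild-type in the others. Its genotype difference on the log2 scale was 0.55 at the apex (−0.10 to 1.197, adjusted p = 0.380, limma), 0.11 in the middle turn (−0.54 to 0.76, adjusted p = 0.843) and 0.12 in the basal turn (−0.53 to 0.77, adjusted p = 0.812). Without the homozygous middle repeat 1 or the wild-type middle repeat 2, the middle value was −0.01 and −0.02. The basal value was −0.30 without the wild-type basal repeat 1 and 0.54 without the wild-type basal repeat 2.

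*Tnfrsf11b* (ENSMUSG00000063727.3, minus strand of chromosome 15, 54250619 to 54278484), the gene of OPG, was the most abundant of the 9, with a mean above that of 97.4% of all genes. Its scaled FPKM was 63.5 and 47.6 in wild-type against 66.7 and 73.7 in homozygous apical libraries, 46.2 and 44.5 against 60.7 and 53.0 in the middle turn, and 67.9 and 66.0 against 21.7 and 12.8 in the basal turn. The homozygous libraries were slightly above wild-type in the apical and middle turns and far below in the basal turn, with no overlap in any turn. OPG transcript fell in the homozygous basal turn, by a log2 difference of −1.94 (standard error 0.24, 95% interval −2.47 to −1.40, adjusted p = 0.00403, limma). It was 0.35 in the apical turn (−0.19 to 0.88, adjusted p = 0.513) and 0.32 in the middle turn (−0.22 to 0.85, adjusted p = 0.439), neither of which was called. The basal value was −1.93 without the wild-type basal repeat 1, at an adjusted p = 0.0164, and −1.93 when only the basal libraries were fitted, at an adjusted p = 0.133. It was −1.96 without the homozygous middle repeat 1 and the wild-type basal repeat 2, at an adjusted p = 0.00489.

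The fall in the homozygous basal libraries went along with other tissue markers there, and their part in the result was not tested. *Coch*, the gene of cochlin in the spiral ligament, was at 1116 and 425 in them and at 3061 to 5470 elsewhere. *Otos*, the gene of otospiralin in the same tissue, was at 848 and 4.43 against 1743 to 5054. The other spiral ligament genes were not uniform. *Car3*, a carbonic anhydrase, was at 518 and 25.3 in the homozygous basal libraries against 333 and 423 in the wild-type basal ones, and as the mean log2 level of all 6 genes the homozygous basal repeat 1, at 7.355, lay above both wild-type middle libraries, at 7.07 and 7.10, whereas repeat 2 was at 4.17. *Otof*, the gene of otoferlin of inner hair cells, was at 0.0982 and 0.109 against 9.42 to 61.7. Between genotypes in the basal turn, limma called 0 of the 6 spiral ligament genes, with 4 at an unadjusted p under 0.05 beside 32.4% of all genes, and 3 of the 10 epithelial genes lower. These were *Otof* at −4.60, *Otoa*, of the tectorial membrane attachment, at −5.52 and *Ceacam16*, a tectorial membrane protein, at −7.65, with adjusted p-values of 0.00162, 0.00546 and 0.00343. The lower repeat for *Tnfrsf11b*, repeat 2, was also the lower for *Coch*, *Otos* and the summed epithelial markers, but not for *Col8a1* of the ligament list, at 25.9 and 51.0.

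**Figure D2:**
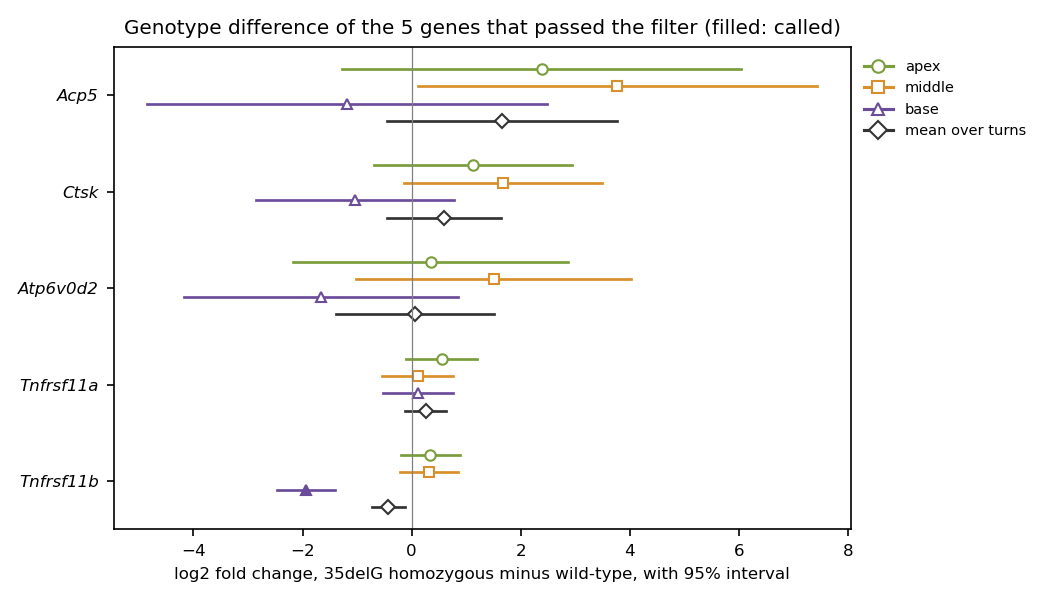
Log2 fold change between homozygous and wild-type libraries (horizontal axis, with 95% intervals from limma) for the 5 genes that passed the filter, in each turn and as the mean over turns. The basal value of *Tnfrsf11b*, drawn filled, is the called one, and the intervals of *Acp5*, *Ctsk* and *Atp6v0d2* span several log2 units.

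In counts, limma called 0 of the 5 genes at the apex, 0 in the middle and 1, *Tnfrsf11b*, at the base. The shares called among all 16215 genes tested were 0.179%, 0.179% and 4.29%. Before adjustment, limma gave a p under 0.05 to 0 of the 5 at the apex, to 1 in the middle, *Acp5*, and to 1 at the base, *Tnfrsf11b*. Among all genes tested the shares under 0.05 were 16.4%, 25.4% and 32.4% from apex to base. No other tool was run. Averaged over the 3 turns, 0 of 5 were called against 0.376% of all genes. Beside 18.6% of all genes, 1 of the 5 had an unadjusted p under 0.05, *Tnfrsf11b*. Its mean log2 fold change was −0.43 (adjusted p = 0.141), against 1.66 for *Acp5* (0.396) and 0.59 for *Ctsk* (0.559). Without the homozygous middle repeat 1 the mean was 0.70 for *Acp5* and 0.09 for *Ctsk*, and with any 1 library left out it ranged from 0.70 to 2.60 and from 0.09 to 1.09. Homozygous libraries lay above wild-type without overlap for 8 of the 9 genes in the apical turn, *Tnfsf11* being the exception, and for 4 in the middle turn, and lay below for 2 in the basal turn. With 2 libraries a group such a split is common, and from apex to base it held in either direction for 59%, 59.5% and 54% of all genes tested. In the direction counted here, above at the apex and in the middle and below at the base, it held for 4365, 5079 and 4507 of the 16215. Of the 5 genes that passed the filter it held for 5, 4 and 2. The 4 genes below the filter are not among those, and the share of such splits among genes below the filter was not counted.

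The genotype difference of OPG was called to change between the middle and basal turns only. From the middle to the basal turn it changed by −2.26 on the log2 scale (−3.01 to −1.50, adjusted p = 0.00358, limma), a difference that was called, as it was for 8.91% of all genes. The call was lost without the homozygous middle repeat 1 (−2.16, adjusted p = 0.0110) or repeat 2 (−2.35, 0.0105), without the wild-type middle repeat 1 (−2.28, 0.0136) or repeat 2 (−2.23, 0.0120) and without the 2 libraries of high bone and marrow markers (−2.18, 0.0120), while the change stayed at −2.61 to −1.88 with each library left out. From the apical to the basal turn it changed by −2.28 at an adjusted p = 0.01004, just above the threshold and not called, and 0.796% of all genes were called there. Between the apical and middle turns the change was −0.03, with an interval of −0.79 to 0.73, and 0 genes of all (0%) were called, with 1306 at an unadjusted p under 0.05. The genotype difference of *Ctsk* changed by −2.71 from the middle to the basal turn (adjusted p = 0.116, limma) and that of *Acp5* by −4.96 (adjusted p = 0.146). Neither change was called. Without the 2 libraries of high bone and marrow markers these were −0.63 and −0.56, whereas without the homozygous middle repeat 2, which leaves the high library alone in its group, they were −4.21 (adjusted p = 0.00840, called) and −7.81 (adjusted p = 0.0134). All these comparisons share libraries, so they are not independent of each other. Those with the basal turn rest on homozygous basal libraries that were low in epithelial markers, *Coch* and *Otos*, whose part was not tested.

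Within the wild-type cochlea, no gene of the 5 was called between turns. *Ctsk* was higher in the basal than in the apical turn by 1.85 on the log2 scale (0.03 to 3.67, unadjusted p = 0.0468, adjusted p = 0.239, limma), or by 1.26 without the wild-type basal repeat 2, and *Tnfrsf11b* in the basal than in the middle turn by 0.55 (unadjusted p = 0.0451, adjusted p = 0.315). In these comparisons, basal against apical and basal against middle, 20.3% and 15.2% of all genes tested had an unadjusted p under 0.05. Of all genes, 0.0863% were called between the wild-type middle and apical turns, 0.0863% between basal and apical, and 0%, with 2472 at an unadjusted p under 0.05, between basal and middle. In the homozygous cochlea *Tnfrsf11b* was lower in the basal turn than in the apical turn by a log2 difference of −2.01 (adjusted p = 0.00453) and than in the middle turn by −1.70 (adjusted p = 0.00502), both called, against 4.06% and 4.66% of all genes. The call against the apex was lost without a wild-type apical repeat 1 or 2 (adjusted p = 0.0140 and 0.0140), a homozygous apical repeat 1 or 2 (0.0432 and 0.0282) or the homozygous basal repeat 2 (0.0152). The call against the middle turn was lost without any of the same libraries (0.0112 to 0.0137), without a homozygous middle repeat 1 or 2 (0.0222 and 0.0188) and without both libraries of high bone and marrow markers (0.0143). With each library left out the differences stayed between −2.36 and −1.63 and between −2.06 and −1.34. Between the homozygous middle and apical turns 0 of the 5 and 0% of all genes were called, with 0 of the 5 and 429 genes at an unadjusted p under 0.05. By group mean (± SD, n = 2), the order of OPG was homozygous apical at 70.2 ± 4.97, wild-type basal at 66.9 ± 1.35, homozygous middle at 56.85 ± 5.475, wild-type apical at 55.5 ± 11.2, wild-type middle at 45.4 ± 1.22 and homozygous basal at 17.25 ± 6.25. The first pair and the pair of homozygous middle and wild-type apical overlapped, the wild-type apical and middle turns differed by −0.27 at an adjusted p = 0.519, and the other neighbours did not overlap and were not compared by a test.

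The balance of ligand and decoy differed widely between libraries. *Tnfsf11* transcript amounted to 0.157% and 0.0703% of *Tnfrsf11b* in wild-type and 0.143% and 0.650% in homozygous apical libraries, to 0.305% and 0% against 3.41% and 0.127% in the middle turn, and to 0% and 0.927% against 1.16% and 1.08% in the basal turn. The highest share, in the homozygous middle repeat 1, came with the highest *Tnfsf11* and an ordinary *Tnfrsf11b*, whereas the shares of the homozygous basal libraries came with low *Tnfrsf11b*. The basal homozygous shares were above both wild-type basal ones. OPG transcript exceeded that of RANK in every library, from 9.62-fold and 20.6-fold in the homozygous basal libraries to 133-fold in the wild-type basal repeat 1. As a share of OPG, RANKL values rest on FPKM below 1 in 11 of the 12 libraries, and these ratios were not tested.

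**Figure D3:**
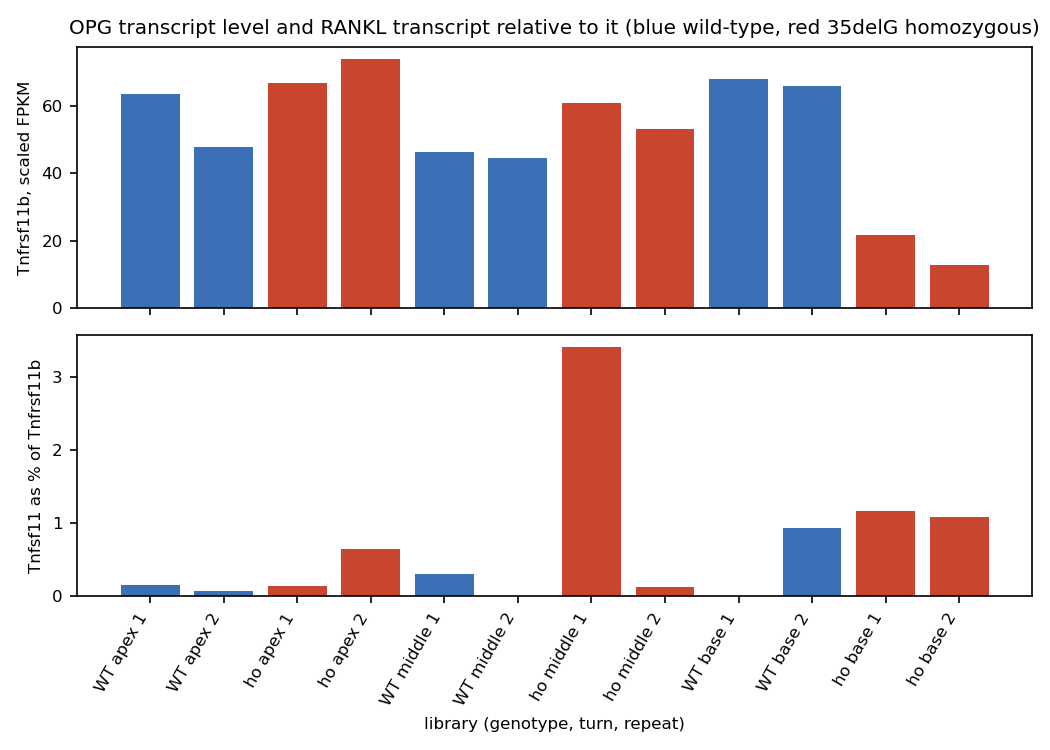
Scaled FPKM of *Tnfrsf11b* (upper bars) and *Tnfsf11* as a percentage of it (lower bars) in each of the 12 libraries, wild-type in blue and 35delG homozygous in red. The upper bars lie between 44.5 and 73.7 except in the homozygous basal libraries at 21.7 and 12.8, and the tallest lower bar, 3.41%, is the homozygous middle repeat 1.

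Across the 12 libraries the osteoclast genes moved with each other and with RANKL more closely than with RANK or OPG, an order that did not hold in all pairs without the 2 libraries of high bone and marrow markers. Pearson's r of log2 levels, given as a description over libraries that share tissue pieces, was 0.911 for *Acp5* and *Ctsk*, 0.954 for *Acp5* and *Tnfsf11* and 0.903 for *Acp5* and *Dcstamp*. Without the homozygous middle repeat 1 and the wild-type basal repeat 2 these were 0.520, 0.797 and 0.912. *Ctsk* and *Ocstamp* went from 0.815 to 0.121 when both were left out, and *Ocstamp* then had r = 0.636 with *Tnfrsf11a* and 0.250 with *Tnfsf11*. *Tnfrsf11b* had r = 0.185 with *Tnfsf11*, 0.277 with *Acp5* and −0.144 with *Tnfrsf11a*.

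The other genes of resorption were less uniform than the 6 above. Of 14 listed, 12 passed the filter, 0 were called between genotypes in any turn, with 3, 5 and 4 at an unadjusted p under 0.05 from apex to base, where 16.4%, 25.4% and 32.4% of all genes were under 0.05, and 7 peaked in the homozygous middle repeat 1. Their median log2 fold changes from apex to base were 0.33, 0.51 and −0.19, where those over all genes were −0.03, 0.04 and −0.02. *Mmp14*, a membrane metalloprotease, ranged from 44.5 to 85.3, *Car2*, the carbonic anhydrase that supplies protons, from 41.3 to 169, and *Ckb*, a brain-type creatine kinase, from 267 to 896, all widely used outside osteoclasts. The other 7 peaked in various libraries, *Clcn7*, a chloride transporter of the ruffled border, at 13.96 in the wild-type basal repeat 1 and *Snx10*, a sorting nexin, at 21.1 in the homozygous basal repeat 2. Among the 7 that peaked with *Acp5*, named here and above after their values were seen, *Mmp9*, the gelatinase of osteoclasts and neutrophils, was at 63.1 in the homozygous middle repeat 1 and at 0.473 to 9.52 elsewhere, and *Itgb3*, the integrin chain by which osteoclasts attach, was at 13.1 against 1.42 to 4.045.

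Genes of RANK signalling were not called between genotypes. Of 17 listed, 16 were tested and 0 were called in any turn, with 2, 8 and 2 at an unadjusted p under 0.05 from apex to base, beside the 16.4%, 25.4% and 32.4% of all genes. Their log2 fold changes were above 0 in the apical turn in 12 of 16 and in the middle turn in 16 of 16. In the basal turn 15 of 16 were below 0. The medians from apex to base were 0.28, 0.55 and −0.34, where those over all genes were −0.03, 0.04 and −0.02. The shares of all genes above and below 0 were not counted. These genes were measured in the same libraries, so their directions are not independent of each other. The change of the genotype difference from the middle to the basal turn was called in 2 of 16, both below 0. Of all genes, 8.91% were called there in either direction, and both genes are named after their values were seen. For *Nfatc1*, the master transcription factor of osteoclasts, this change was −1.64 (adjusted p = 0.00563, limma). Its homozygous levels were 7.45 and 5.42 in the middle turn and 2.24 and 2.21 in the basal turn. Wild-type levels were 2.395 and 3.11 in the middle turn and 4.15 and 4.02 in the basal turn. For *Nfkb2*, the precursor of p52 in the noncanonical NF-kB pathway, the change was −1.24 (adjusted p = 0.00790, limma). Of the resorption genes *Rab38*, a small GTPase of lysosome-related organelles, was called in the same comparison at −1.92 (adjusted p = 0.00960). *Nfatc1* and *Rab38* were also called lower in the homozygous basal than in the homozygous apical turn, by −1.14 and −1.61 (adjusted p = 0.00926 and 0.00819). *Rela*, a subunit of NF-kB, ranged from 10.2 to 18.5, and the adaptors *Tyrobp* and *Fcer1g*, which costimulate RANK and are shared with macrophages and other myeloid cells, were highest in the 2 libraries of high bone and marrow markers, *Tyrobp* at 111 and 124 against 9.28 to 30.3 and *Fcer1g* at 49.3 and 31.8 against 4.91 to 17.1.

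The CSF1 axis, which keeps the precursors alive, did not follow the osteoclast genes. *Csf1r*, the receptor, was at 20.0 and 17.6 in the homozygous middle repeat 1 and the wild-type basal repeat 2 and at 8.14 to 22.6 elsewhere. Its ligands *Csf1* and *Il34* ranged from 1.65 to 11.7 and from 7.36 to 17.0. None of the 3 was called between genotypes in any turn, with 1 at an unadjusted p under 0.05 in each, beside the shares of all genes given above.

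Markers of bone, marrow and macrophages went with the osteoclast genes, and their part in those levels was not tested. Of the osteoblast and osteocyte markers 9 of 14 peaked in the homozygous middle repeat 1 or the wild-type basal repeat 2, as did 11 of 11 marrow and blood markers and 11 of 12 macrophage markers. None of the nerve, spiral ligament or cochlear epithelium markers peaked in either. These libraries had been set apart by the sums of the osteoblast, marrow and macrophage lists, so the counts of those lists add no separate evidence. Of all genes tested, 10.6% peaked in the homozygous middle repeat 1, and the share for both libraries together was not counted. *Col1a2*, a chain of type I collagen, was at 1026 and 559 in these libraries against 133 to 318 elsewhere. *Ibsp*, bone sialoprotein, was at 487 and 697 but reached 694 in the wild-type middle repeat 1, and *Spp1*, osteopontin, was at 1998 and 2807 against 856 to 2116. *S100a8* and *S100a9*, the calprotectin chains of neutrophils, were at 2115 and 2626 in the homozygous middle repeat 1 and at 827 and 902 in the wild-type basal repeat 2, against at most 179 elsewhere. The haemoglobin gene *Hbb-bs* was higher in the wild-type basal repeat 2, at 3404, than in the homozygous middle repeat 1, at 2022, and was at 1757 in the wild-type basal repeat 1. Of the macrophage markers *Lyz2* was at 455 and 462 against 26.9 to 89.2, while the complement genes *C1qa* and *C1qb* spread from 11.7 to 50.7 and from 11.6 to 62.3 with other libraries close to these. The median log2 fold changes of the marrow list, 0.90, 2.53 and −2.71 from apex to base, had the same signs as those of *Acp5*. So had those of the osteoblast list, at 1.72, 0.98 and −0.39, and of the macrophage list, at 0.77, 0.30 and −0.52. The medians of the resorption and RANK signalling lists above had these signs too. Those of the cartilage, CSF1, nerve, spiral ligament and epithelium lists did not. In each turn limma called 0 of 11 marrow, 0 of 14 osteoblast, 0 of 12 macrophage and 0 of 5 cartilage genes tested. At an unadjusted p under 0.05 these lists had, from apex to base, 0, 5 and 3 marrow, 4, 2 and 0 osteoblast, 4, 0 and 1 macrophage and 3, 1 and 3 cartilage genes, beside the same 16.4%, 25.4% and 32.4% of all genes. Cartilage markers were mixed, with 2 of 7 highest in the homozygous middle repeat 1, *Comp* and *Col10a1*, named after their values were seen. *Col2a1* ranged from 118 to 429, *Col9a1* from 32.4 to 309 and *Sox9* from 5.41 to 45.1, with the lowest values of the last 2 in the homozygous basal repeat 2.

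**Figure D4:**
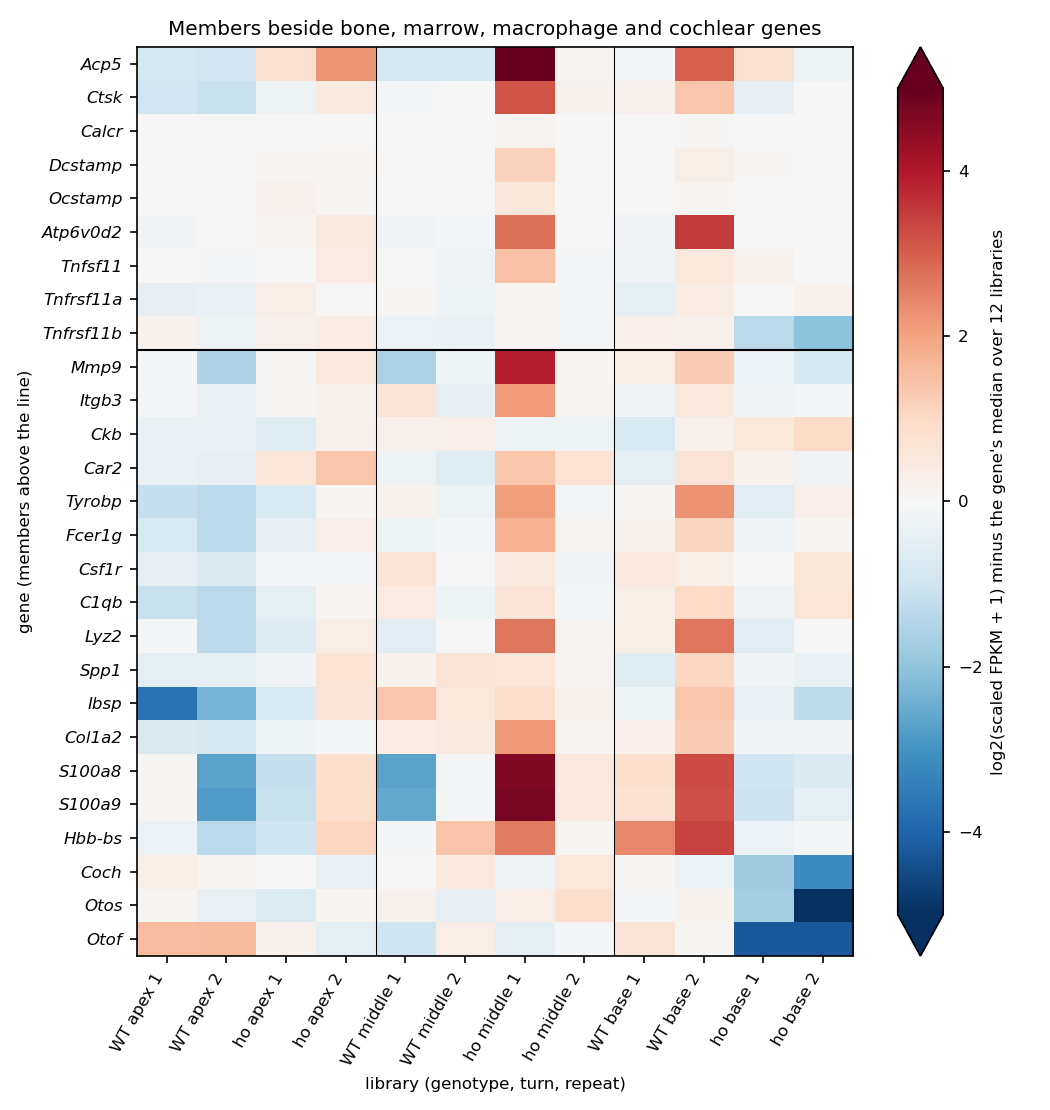
Log2(scaled FPKM + 1) minus the gene's median over the 12 libraries, as colour, for the 9 genes (above the line) and genes of the other lists (below it), of which *Mmp9* and *Itgb3* were chosen after their values were seen, with libraries along the horizontal axis. Colours stop at 5 in either direction, and *Acp5*, *Mmp9* and *S100a8* are deepest red in the homozygous middle repeat 1, while *Tnfrsf11b*, *Coch* and *Otof* are blue in both homozygous basal libraries.

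The genes most like *Ctsk* and *Tnfrsf11b* were sought among 9464 genes by Pearson's r over the 12 libraries, again as a description. The 5 closest to *Ctsk* were *Hcls1* (r = 0.978), *Coro1a* (0.974), *Cybc1* (0.971), *Arhgdib* (0.966) and *Ifngr1* (0.965). *Coro1a* was at 93.2 in the homozygous middle repeat 1, 24.45 in the wild-type basal repeat 2 and 2.73 to 13.3 elsewhere. Without these libraries r lay between 0.822 and 0.980 over the remaining 10. The 5 closest to *Tnfrsf11b* were *Pantr1* (0.976), *Wfdc2* (0.964), *Tspan8* (0.958), *Smim3* (0.953) and *Wwc1* (0.952). All were lowest in the homozygous basal libraries, *Pantr1* at 26.6 and 12.6 against 46.6 to 94.3 elsewhere. Without those libraries r fell to between 0.677 and 0.819, over 10 libraries.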

How the data were processed

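RNA-seq of cochlear turns was analysed in 12 libraries. The authors cleaned the paired reads with fastp 0.20.0, aligned them to mm10 (GRCm38) with STAR 2.7.3a, kept reads that mapped once and calculated the deposited FPKM with stringtie 2.0. The annotation version and the strand of counting are not given in the sources used here. Their counts and DESeq2 tests were not used. Depth is unknown, so precision rests on the spread between repeats.

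Here each library's FPKM were scaled by the median of ratios across 11552 genes at 1 FPKM or more in all libraries. Genes at or above 1 FPKM in 2 or more libraries, 16215 in all, were put through limma 3.58.1 in R 4.3.3 as log2(scaled FPKM + 1), with 6 group means and an eBayes trend. Tests were two-sided with 6 residual plus 2.78 prior degrees of freedom, and p-values were adjusted by Benjamini-Hochberg over all these genes. Calls required an adjusted value under 0.01 and more than a 2-fold difference. The script was tested on simulated data. Figures used matplotlib 3.10.9 in Python 3.11.15, and promoters came from RefSeq GRCm38.p6.

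The 9 genes and the marker lists were chosen by hand with earlier results of these data known. By rule, the 3 genes of highest mean in each list, those called between genotypes and the 5 genes most like *Ctsk* and *Tnfrsf11b* were to be named, though not all are reported. The fits were repeated with pseudocounts of 0.1 or 0.01, without the filter or with one of 5 FPKM, on unscaled or quantile-normalized FPKM, on the compared groups alone, with library weights, without the trend, with repeat numbers as a block, with 0.05 as the threshold, without the fold limit and with each library left out. Leaving out both libraries of high bone markers was added after the data were seen. They are called bone-rich below by their marker sums alone.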

Additional observations from a re-analysis of the deposited data

Results flagged for a closer look

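The genotype difference of *Tnfrsf11b* was not the same in the basal turn as in the middle turn. The change from the middle to the basal turn was −2.26 on the log2 scale, past the threshold of the interaction test (adjusted p = 0.00358, limma), with both homozygous libraries above wild-type in the middle turn and both below in the basal turn. The call was lost without either library of the homozygous or the wild-type middle turn (adjusted p = 0.0105 to 0.0136), without the libraries of high bone markers (0.0120), without the filter (0.0118) and with only the groups compared (0.0198). From the apical to the basal turn it was −2.28, again with libraries on opposite sides and without overlap, and the interaction test gave an adjusted p = 0.01004, not past the threshold. The spiral ligament genes *Coch* and *Otos* were low beside it, at 1116 and 425 against 3061 to 5470 and at 848 and 4.43 against 1743 to 5054, while *Car3* was at 518 and 25.3 against 333 and 423 in the wild-type basal turn, and their part was not tested.

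*Ctsk* was higher in both homozygous libraries of the apical and middle turns and lower in both of the basal turn. From apex to base the genotypes did not overlap, in either direction, for 59%, 59.5% and 54% of all genes tested. The share of genes on opposite sides between turns was not counted, which holds for *Tnfrsf11b* above too. The genotype difference of *Ctsk* changed by −2.17 from the apical to the basal turn (adjusted p = 0.246, limma) and by −2.71 from the middle to the basal turn (adjusted p = 0.116). Neither interaction was past the threshold. Without the homozygous middle repeat 2 the latter was −4.21 and past it (adjusted p = 0.00840), and without both libraries of high bone markers it was −0.63 (0.323).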

How the results depend on the processing

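Of 441 values of the genotype differences under alternatives, 426 kept direction and side of the threshold, 8 were weaker, all of *Tnfrsf11b* in the basal turn, and 7 reversed. *Tnfrsf11b* in the basal turn kept a log2 fold change between −2.29 and −1.57 with each library left out. Its call was lost without the filter (−1.94, adjusted p = 0.0126), with only the basal libraries (−1.93, 0.133), with library weights (−1.94, 0.0228), without wild-type apical repeat 1 or 2 (−1.94, 0.0112 and 0.0113), without homozygous apical repeat 1 or 2 (−1.94, 0.0108 and 0.0107) and without wild-type basal repeat 1 (−1.93, 0.0164). The number of genes called in the basal turn was then 0 in place of 1, a range of 0 to 1 with each library left out.

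The genotype change from the apical to the basal turn went from 0 genes to 1, *Tnfrsf11b*, with a filter of 5 FPKM, FPKM as deposited, quantile normalization, both libraries of high bone markers left out, an adjusted p under 0.05, and without wild-type basal repeat 2 or homozygous basal repeat 1 (range 0 to 1). The change from the middle to the basal turn went from 1 to 0 without the filter, with only the groups compared, with both bone-rich libraries left out, and without wild-type middle repeat 1 or 2 or homozygous middle repeat 1 (range 0 to 1), and without homozygous middle repeat 2 the 1 gene was *Ctsk* (−4.21, adjusted p = 0.00840) in place of *Tnfrsf11b* (0.0105). The homozygous basal to apical difference went from 1 to 0 without the filter, with only the groups compared, and without wild-type apical repeat 1 or 2, homozygous apical repeat 1 or 2 or homozygous basal repeat 2 (range 0 to 1). The homozygous basal to middle difference did so under these settings, with both bone-rich libraries left out, and without homozygous middle repeat 1 or 2 (range 0 to 1). The causes of these changes in the counts were not tested. In the other 8 comparisons 0 genes were called under every alternative.

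Reversed values, none called, were *Tnfrsf11a* in the middle turn at −0.0186 without wild-type middle repeat 2 and −0.0074 without homozygous middle repeat 1 (range −0.0186 to 0.24) and −0.0079 without both bone-rich libraries. *Tnfrsf11a* in the basal turn was −0.30 without wild-type basal repeat 1 (range −0.30 to 0.54). *Acp5* in the basal turn was 0.36 without wild-type basal repeat 2 or without both (range −2.74 to 0.36), and *Atp6v0d2* over the turns was −0.55 without wild-type basal repeat 1 (range −0.55 to 0.52). Deviations of same-numbered libraries from their group mean correlated over 0.1 in 4 of 15 pairs of groups (range −0.432 to 0.45). With 2 repeats a group this cannot decide whether libraries of the same number came from the same mice. With the block by repeat number, *Tnfrsf11b* in the basal turn was −1.94 at an adjusted p = 0.00651, and the block changed no count of calls. With 2 repeats a group and unknown depth, small differences in genes below 1 FPKM were not detectable.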

Other observations

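The osteoclast genes were not in the same proportion in the libraries where they were high. *Acp5* was 22.7-fold the level of *Atp6v0d2* in the homozygous middle repeat 1 and 1.77-fold in the wild-type basal repeat 2, where the other libraries with a value lay between 3.25-fold and 24.0-fold. *Acp5* amounted to 87.7% of *Ctsk* in the former, to 41.3% in the latter and to 45.0% and 23.8% in the homozygous apical libraries. It amounted to 9.19% in the homozygous middle repeat 2 and to 27.1% and 7.09% in the homozygous basal repeats 1 and 2. In the wild-type apical and middle libraries and the wild-type basal repeat 1 it was 2.90% to 7.09%. *Bglap*, the gene of osteocalcin, named after its values were seen, was at 790 in the homozygous middle repeat 1 and 1102 in the wild-type basal repeat 2, an order opposite to that of *Acp5*, and at 2.17 to 53.4 elsewhere. The osteoblast and osteocyte markers did not all share this order. Of the 14, 6 peaked in the wild-type basal repeat 2 and 3 in the homozygous middle repeat 1. None of these ratios or orders was tested.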
